A study of Saccharomyces cerevisiae with 3 samples.

Results

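The genes that build and remodel the glucan and chitin of the yeast cell wall were examined by array comparative genomic hybridisation in 3 strains of Saccharomyces cerevisiae. The group was set by gene identity and not by measured values, although earlier results of these data were known when it was chosen. It comprises 33 genes of the FKS, GAS, CHS, CRH, SCW, EXG, KRE and SUN families with BGL2, CTS1, DSE4 and ACF2, of which 32 had a value in all 3 samples, out of 6123 open reading frames (ORFs) with complete values among 6178 in the table. GAS1 was not analysed here. Genes are given with their systematic names, in which the second letter stands for the chromosome, from A for I to P for XVI, and the third for its left or right arm. The strains were R2 IVo, labelled as a hybrid made within the species, and its parents Sc1 and Sc2. Genomic DNA was cut with Hinf I, labelled with Cy3 or Cy5 and co-hybridised in pairs. The samples were R2 IVo against Sc1, R2 IVo against Sc2, and Sc1 against Sc2. The labels also record cultivation on an industrial scale and drying for every sample. They give no genotype or ploidy, and R2 IVo stands for 1 hybrid line. Each pair of strains has 1 sample, already combined by the authors over duplicate arrays with exchanged dyes.

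The wall of S. cerevisiae is a network of beta-1,3-glucan to which beta-1,6-glucan, chitin and mannoproteins are attached. Synthases in the plasma membrane make the glucan and chitin chains. Transferases outside the membrane then lengthen, branch and cross-link them, and glucanases and a chitinase open the wall when daughter cells separate. Many mannoproteins are held in the wall through beta-1,6-glucan, and the series title refers to release of mannoproteins by hybrids.

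All ratios are given with the first-named strain as the numerator and are read as log2; base and direction are likely readings, not stated ones. A ratio of 0 means equal hybridisation after each sample was centred on its median, so a change that affects the whole genome alike is not visible. A ratio away from 0 can come from gene copies, from sequence that hybridises differently to the probe, or from related sequence elsewhere, and these cannot be told apart here. The deposited table states no intensities, so signal over background is unknown. None of the group's values was among the 76 cells of the table read as having lost a decimal point, which is also a likely reading and not a stated one.

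No gene of the group was called different between any pair of strains. The call was an adjusted p under 0.05 from limma, fitted to all 6123 ORFs with the 3 samples as the sides of a triangle and adjusted by the Benjamini-Hochberg method. The count was 0 of 32 for R2 IVo over Sc1, where 0.67% of all ORFs were called, 0 of 32 for R2 IVo over Sc2, where 0.915% were called, and 0 of 32 for Sc1 over Sc2, where 1.98% were called. At those shares fewer than 1 called gene would fall to a group of this size, so the count lies near the background. At an unadjusted limma p under 0.05 there were 1, 3 and 2 genes in the same order, beside 7.99%, 7.95% and 9.57% of all ORFs. The p-values cover the error of the arrays only, because the labels name no separate cultures.

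The intervals show how large a difference could be within the random error of the 3 samples. They do not cover an error that all 3 samples share, such as low signal or hybridisation to related sequence. Nor do they cover an error carried by the DNA of a single strain, which enters both of its samples and cancels around the triangle. For all 32 genes and all 3 comparisons the 95% interval of the estimate (limma, moderated) lay within a 1.5-fold difference in either direction, which is 0.58 in log2. Within a narrower bound of 0.32 in log2 lay 31 genes for R2 IVo over Sc1, 31 for R2 IVo over Sc2 and 29 for Sc1 over Sc2. Over all ORFs 98.8%, 98.3% and 97.5% had intervals within 1.5-fold, and 88.8%, 88.3% and 87.1% had intervals within the narrower bound. The standard error of a group member ran from 0.061 to 0.091. The smallest estimate that was called anywhere in the table was 0.45, 0.43 and 0.36 in size for the 3 comparisons, above every estimate in the group.

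**Figure D1:**
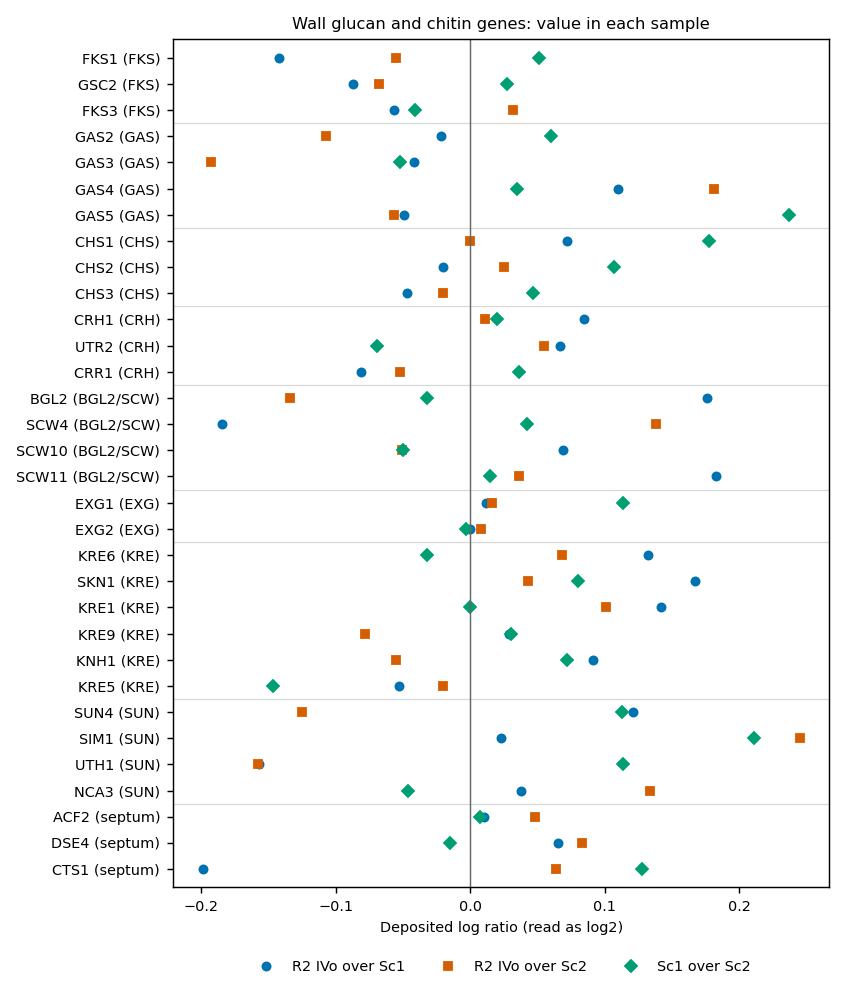
Deposited log ratio (x axis, read as log2) of each of the 32 genes (y axis, family in brackets) in the 3 samples; each point is 1 sample and there are no error bars. All values lie between −0.199 (CTS1, R2 IVo over Sc1) and 0.245 (SIM1, R2 IVo over Sc2).

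The genes of the catalytic subunits of beta-1,3-glucan synthase had estimates at or below 0 for the hybrid against both parents, and none of these was called. FKS1 (YLR342W), the main subunit in growing cells, had deposited ratios of −0.142 for R2 IVo over Sc1, −0.055 for R2 IVo over Sc2 and 0.051 for Sc1 over Sc2. GSC2 (YGR032W), also known as FKS2 and used under stress and in sporulation, was at −0.087, −0.068 and 0.027 in the same order, which is the order for all triplets that follow. FKS1 and GSC2 thus lay low in both hybrid samples and slightly above 0 between the parents. FKS3 (YMR306W), a relative with a role in the spore wall, was at −0.057, 0.032 and −0.041 and did not hold 1 sign in the hybrid samples. The fitted estimates for R2 IVo over Sc1 were −0.12 ± 0.062 (SE) for FKS1, −0.083 ± 0.061 for GSC2 and −0.0067 ± 0.066 for FKS3. The sign of FKS3 is not settled, since this estimate was 0.00061 with samples centred on the mode and 0.082 on the indirect path alone. The limma adjusted p for FKS1 was 0.713. Both hybrid comparisons use the same hybrid DNA, so a shared sign does not count as a second observation.

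The GAS genes encode proteins of the beta-1,3-glucanosyltransferase family, whose enzymes lengthen glucan chains at the outer face of the membrane. For R2 IVo over Sc2, 2 of the 4 measured members had intervals that left out 0, which equals an unadjusted limma p under 0.05. That held for 3 of the 32 genes of the group and for 7.95% of all ORFs, and no result about the family follows from so few genes. GAS3 (YMR215W) was at −0.042, −0.193 and −0.052. GAS4 (YOL132W), which acts in the spore wall, was at 0.110, 0.181 and 0.035. The 2 genes therefore lay on opposite sides of 0 in every sample. Their estimates for R2 IVo over Sc2 were −0.17 ± 0.064 for GAS3 (limma adjusted p = 0.588) and 0.16 ± 0.062 for GAS4 (limma adjusted p = 0.582). GAS2 (YLR343W), the other GAS gene of the spore wall, was at −0.022, −0.107 and 0.060. GAS5 (YOL030W), expressed in growing cells, was at −0.049, −0.057 and 0.237, the highest deposited value of the group between the parents. The GAS5 value was not matched by the path through the hybrid. Its closure, meaning R2 IVo over Sc1 plus Sc1 over Sc2 minus R2 IVo over Sc2 in centred values, was 0.24 where 0 means that the 3 samples add up, and its fitted estimate between the parents was 0.14 ± 0.076.

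The 3 chitin synthase genes were each above 0 between the parents and had estimates between −0.047 and 0.078 in the hybrid comparisons. CHS1 (YNL192W), whose product repairs the wall at cell separation, was at 0.072, 0.000 and 0.178. CHS2 (YBR038W), which makes the primary septum, was at −0.020, 0.025 and 0.107, and CHS3 (YBR023C), which makes most of the chitin of the wall and bud ring, was at −0.047, −0.020 and 0.047. The family median for Sc1 over Sc2 was 0.074, the highest of the 9 families, with estimates from 0.028 for CHS3 to 0.083 for CHS1, and no member had an unadjusted limma p under 0.05.

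CRH1 (YGR189C) and UTR2 (YEL040W) encode transglycosylases that join chitin to glucan, and CRR1 (YLR213C) is their relative in the spore wall. CRH1 was at 0.085, 0.011 and 0.020 and UTR2 at 0.067, 0.055 and −0.069. CRR1 was at −0.081, −0.052 and 0.036, opposite in sign to both of them in the hybrid samples. The estimates of the family ran from −0.076 to 0.093 over the 3 comparisons, within 2 standard errors of 0.

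BGL2 (YGR282C), SCW4 (YGR279C), SCW10 (YMR305C) and SCW11 (YGL028C) encode related wall proteins of the glucanase type, and this family held a pair of neighbouring genes with opposite values. BGL2, a major wall glucanase and transferase, was at 0.176, −0.134 and −0.032. SCW4, which lies 3 measured ORFs away from BGL2 on chromosome VII, was at −0.185, 0.138 and 0.042. Every sign of SCW4 was the reverse of that of BGL2, although the genes are near neighbours. Both genes also failed to add up, with closures of 0.28 for BGL2 and −0.28 for SCW4, and 10.7% and 9.77% of all ORFs had a larger closure in size. Their fitted estimates between the parents, −0.14 ± 0.080 and 0.12 ± 0.081, had limma adjusted p-values of 0.69 and 0.729. SCW10, a relative of SCW4 on chromosome XIII, was at 0.069, −0.051 and −0.050. SCW11, linked to cell separation, was at 0.183, 0.036 and 0.015 and had the highest estimate of the group for R2 IVo over Sc1, 0.14 ± 0.068 (limma adjusted p = 0.713).

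The exo-beta-1,3-glucanase genes had estimates close to 0 in all comparisons. EXG2 (YDR261C), which encodes a membrane-anchored enzyme, had deposited values of 0.000, 0.008 and −0.003. EXG1 (YLR300W), the gene of the main secreted enzyme, was at 0.012, 0.016 and 0.114. The family's range of estimates was the narrowest of the 9 families for both hybrid comparisons, 0.028 for R2 IVo over Sc1 and 0.048 for R2 IVo over Sc2, though it rests on only these genes.

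The KRE family and its relatives act in the making of beta-1,6-glucan, and none of the 6 genes was called. KRE6 (YPR159W), a membrane protein needed for beta-1,6-glucan, was at 0.132, 0.068 and −0.032, and its relative SKN1 (YGR143W) was at 0.167, 0.043 and 0.080. KRE1 (YNL322C), a surface protein of the same pathway, was at 0.142, 0.101 and 0.000. These 3 genes were above 0 in both hybrid samples. KRE9 (YJL174W), a secreted protein needed for beta-1,6-glucan, was at 0.029, −0.078 and 0.030, and its relative KNH1 (YDL049C) was at 0.091, −0.055 and 0.072. KRE5 (YOR336W), a protein of the endoplasmic reticulum, was at −0.053, −0.020 and −0.147, the lowest deposited value of the group between the parents. The family median was 0.066 for R2 IVo over Sc1, with 5 of 6 estimates above 0, and 0.043 for R2 IVo over Sc2, with 4 of 6 above 0, and 0 of 6 had an unadjusted limma p under 0.05 in any comparison. The signs carry no test, and of 7 further genes of beta-1,6-glucan assembly outside the group 2 were above 0 for R2 IVo over Sc1 and 5 for R2 IVo over Sc2. KRE1 had the family's highest estimates, 0.14 ± 0.062 and 0.11 ± 0.062, with limma adjusted p-values of 0.668 and 0.757.

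The SUN genes, whose products are wall proteins related to glucanases, spanned the widest range of estimates of any family in both hybrid comparisons, from UTH1 (YKR042W) at −0.19 to NCA3 (YJL116C) at 0.092 for R2 IVo over Sc1 and from UTH1 at −0.12 to SIM1 (YIL123W) at 0.24 for R2 IVo over Sc2. SIM1 was at 0.023 for R2 IVo over Sc1, 0.245 for R2 IVo over Sc2 and 0.211 for Sc1 over Sc2, so that both samples with Sc2 DNA were high and the sample without it was near 0. The 3 values nearly add up, with a closure of −0.014. The estimates were 0.24 ± 0.061 for R2 IVo over Sc2, a 1.18-fold ratio with an interval from 0.088 to 0.38, and 0.20 ± 0.061 for Sc1 over Sc2, a 1.15-fold ratio with an interval from 0.054 to 0.35. By limma the unadjusted p was 0.00766 and 0.0152, the lowest values of the group, and the adjusted p was 0.333 and 0.313. A larger estimate in size was seen for 3.71% and 6.61% of all ORFs in these comparisons. Both comparisons share the Sc2 DNA, and an error in that DNA would not show in the closure.

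UTH1, which encodes a SUN protein also found at mitochondria, was at −0.157, −0.158 and 0.114. Both hybrid samples were below 0, with an estimate of −0.19 ± 0.065 for R2 IVo over Sc1 (limma adjusted p = 0.534), a 0.88-fold ratio, and of −0.12 ± 0.065 for R2 IVo over Sc2 (limma adjusted p = 0.706). NCA3, its closest relative in the group, was at 0.038, 0.134 and −0.046, on the other side of 0 in all 3 samples. SUN4 (YNL066W), which acts in septation and is related to SIM1, was at 0.121, −0.125 and 0.113 and had the largest closure of the group, 0.36, a size that 5.29% of all ORFs exceeded. Its fitted estimates were near 0, from −0.019 to 0.0083 with an SE of 0.091.

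Among the genes of daughter cell separation, CTS1 had the widest spread between samples. CTS1 (YLR286C), the endochitinase that opens the septum, was at −0.199, 0.064 and 0.128. Its estimate for Sc1 over Sc2 was 0.16 ± 0.066, with an interval whose lower end was 0.000114, and its limma adjusted p was 0.522. The estimate for R2 IVo over Sc1 was −0.15 ± 0.066 (limma adjusted p = 0.666), and neither was called. Both comparisons use the Sc1 DNA, so values on the same side of Sc1 are not separate observations. DSE4 (YNR067C), the endoglucanase of daughter cells, was at 0.065, 0.083 and −0.015, and its intracellular relative ACF2 (YLR144C) was at 0.010, 0.048 and 0.007.

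**Figure D2:**
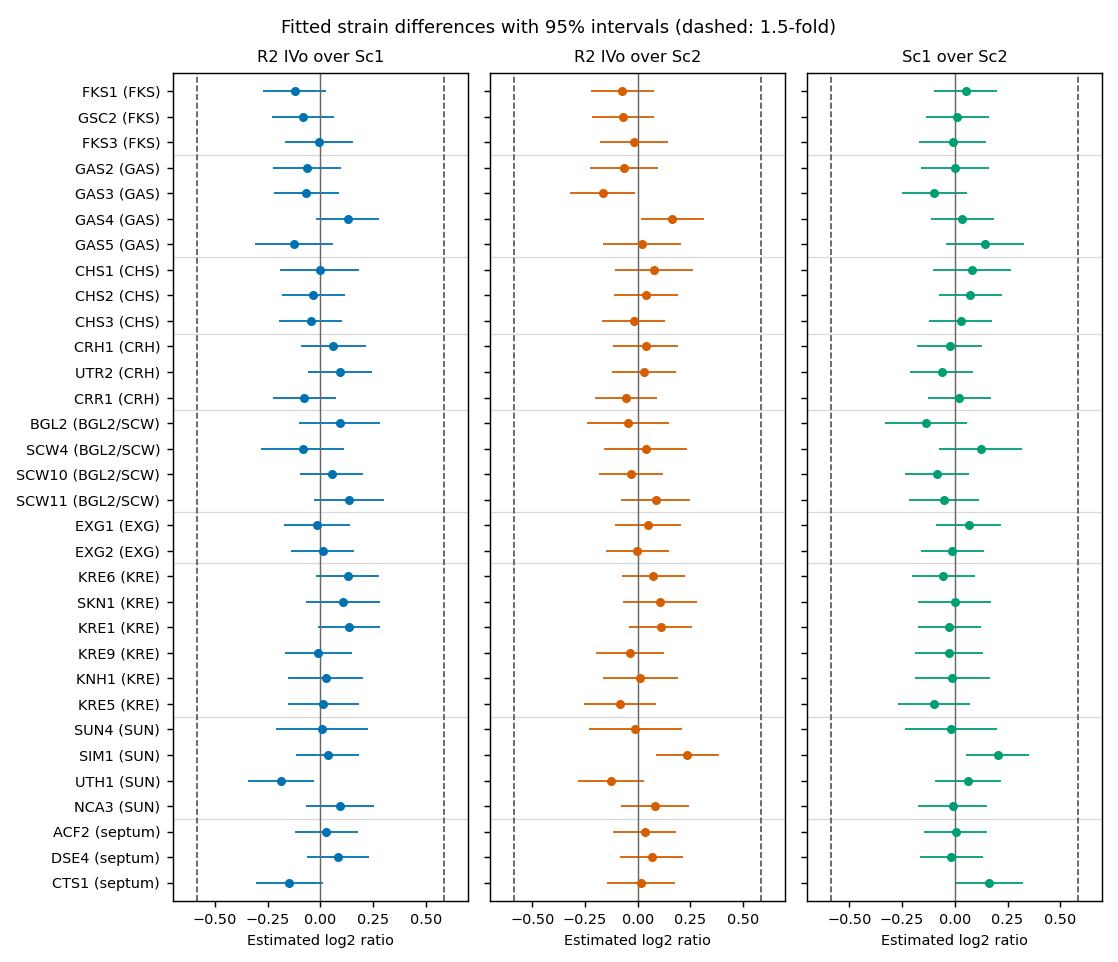
Estimated log2 ratio of each gene (points) with its 95% interval from limma (bars), in a panel for each pair of strains; dashed lines mark a 1.5-fold ratio (0.58 in log2). Every interval lies between the dashed lines, and only SIM1, UTH1, GAS3, GAS4 and CTS1 have an interval that leaves out 0.

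Family medians stayed within 0.083 of 0 in every comparison. For R2 IVo over Sc1 they ran from −0.083 for the FKS genes to 0.072 for BGL2 and the SCW genes. For R2 IVo over Sc2 they ran from −0.070 for the FKS genes to 0.043 for the KRE genes, and for Sc1 over Sc2 from −0.068 for BGL2 and the SCW genes to 0.074 for the CHS genes. The range within a single family reached 0.28, 0.36 and 0.26 for the 3 comparisons, the first and second in the SUN genes and the third in BGL2 and the SCW genes. The number of families is small and the medians carry no test.

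Related genes had close estimates in some pairs and distant ones in others. FKS1 and GSC2 differed by −0.040 in the estimate for R2 IVo over Sc1 and by −0.0017 for R2 IVo over Sc2, and KRE6 and SKN1 differed by 0.022 and −0.032. UTH1 and NCA3 differed by −0.28 and −0.21, and SUN4 and SIM1 by −0.025 and −0.25. Sequence similarity between the genes, and so cross-hybridisation, was not tested.

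Against the whole table the group's estimates were of ordinary size at the centre. The count of larger values was near the background for a group of this size. The median size of an estimate was 0.072 in the group and 0.055 over all ORFs for R2 IVo over Sc1, 0.051 and 0.053 for R2 IVo over Sc2, and 0.043 and 0.055 for Sc1 over Sc2. The median estimates of the group were 0.0095, 0.017 and −0.0050, beside 0.0027, −0.00033 and 0.0020 over all ORFs. An estimate of at least 0.2 in size was seen in 0, 1 and 1 of the 32 genes, SIM1 in both cases, beside 4.98%, 5.60% and 6.71% of all ORFs. By the estimates, none of them called, the hybrid lay between its parents for 11 genes, above both for 12 and below both for 9, beside 35.7%, 32.5% and 31.7% of all ORFs. The median size of the closure was 0.10 in the group and 0.10 over all ORFs.

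**Figure D3:**
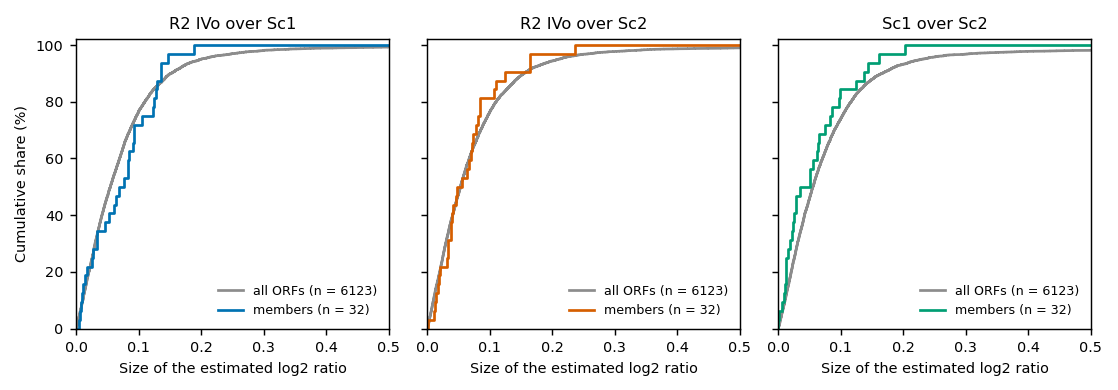
Cumulative share of genes (y axis, %) up to a given size of the estimated log2 ratio (x axis), for the 32 genes of the group and for all 6123 ORFs, in a panel for each pair of strains. The group's curve reaches 100% at 0.19, 0.24 and 0.20, while the curve of all ORFs goes on beyond the axis.

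**Figure D4:**
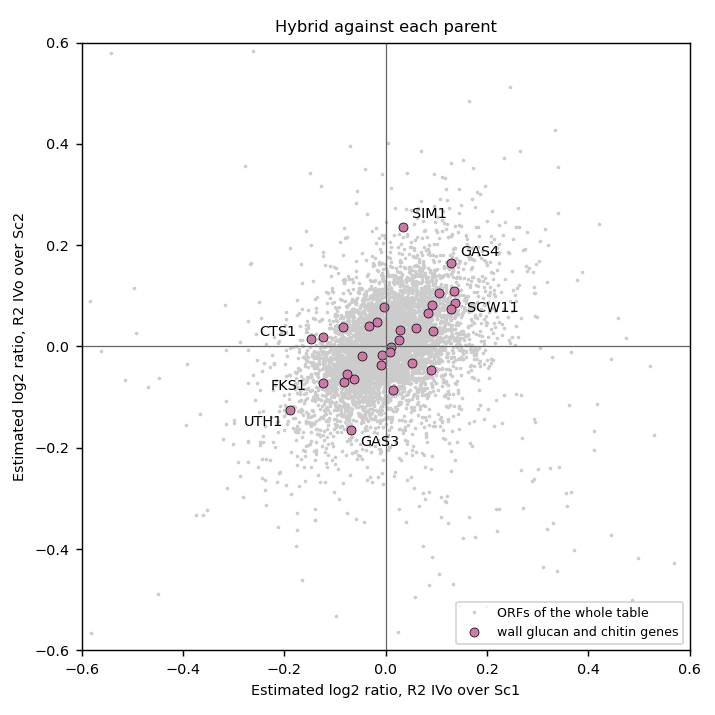
Estimated log2 ratio of R2 IVo over Sc2 (y axis) against R2 IVo over Sc1 (x axis) for the 32 genes (filled circles) and for the 6053 ORFs within 0.6 on both axes (grey points; 70 ORFs lie beyond). The axes share the hybrid's DNA, so the diagonal spread of all points is no result; SIM1 is the highest of the group and UTH1 the farthest to the left.

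The genes lie on 12 chromosomes. By the gene order of RefSeq assembly R64, 0 of the 32 genes were among the 10 outermost measured ORFs of a chromosome end. Some lay just inside that zone: DSE4 was the 11th from an end, BGL2 the 12th, and SCW4 and KRE1 each the 15th. The zone held 5.69% of all 5625 placed ORFs, so a count of 0 among 32 is near that share. It held 53.7% of the 108 placed ORFs called in any comparison. A link between position and calls was not tested. Within 2 measured ORFs of a group member there were 118 other ORFs, and 1 of these was called. It was YJL114W, near NCA3 on chromosome X, at 2.44 ± 0.079 for R2 IVo over Sc1 (limma adjusted p = 8.03e-05) and −2.43 ± 0.079 for Sc1 over Sc2. NCA3 itself was at 0.092 ± 0.067 and −0.011 ± 0.067 in these comparisons. ASF1, between them, was at 0.052 ± 0.062 for R2 IVo over Sc1. Whether the YJL114W ratio arises at this place or from related sequence elsewhere was not tested.

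The estimate of a gene was also set against the median of the 5 measured ORFs on each side. SIM1 on chromosome IX stood 0.25 above its neighbourhood for R2 IVo over Sc2 and 0.27 above it for Sc1 over Sc2. The adjoining ORFs on one side were near or below 0 for R2 IVo over Sc2, with AYR1 at −0.020 and KGD1 at −0.0017, while those on the other side were above 0, with POG1 at 0.086 and QDR2 at 0.15, and none was called. GAS3 stood −0.21 and GAS4 0.20 from their neighbourhoods for R2 IVo over Sc2, while SKN1 stood 0.21 and UTH1 −0.20 from theirs for R2 IVo over Sc1. These 6 were the only distances of at least 0.2 in size over the 32 genes and 3 comparisons. The distance was not computed for all ORFs, so no share stands beside it. Estimates alone reached 0.2 in size for 4.98%, 5.60% and 6.71% of all ORFs, so these genes may be ordinary.

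The other genes of these pathways were read from the same fit. Of 46 listed genes of chitin synthesis, wall signalling, beta-1,6-glucan assembly and cell separation, 45 had all 3 values, and by limma 0 were called in any comparison, with 2, 2 and 4 at an unadjusted p under 0.05. These are 4.44%, 4.44% and 8.89% of the list, beside 7.99%, 7.95% and 9.57% of all ORFs, and with 0.67%, 0.915% and 1.98% of all ORFs called, a count of 0 among 45 is near the background. Their median estimates were −0.0073, 0.015 and 0.026. For R2 IVo over Sc1 the lowest was CHS6, an exomer subunit that carries Chs3 to the surface, at −0.18 ± 0.062, and the highest was DSE1, a daughter-cell gene, at 0.15. For R2 IVo over Sc2 the lowest was ROT2, a glucosidase of glycoprotein folding, at −0.14, and for Sc1 over Sc2 it was ROM1, an exchange factor for Rho1, at −0.17 ± 0.064.

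SPR1, the exo-beta-1,3-glucanase of sporulation and a relative of EXG1, was the highest of that list in both comparisons with Sc2. Its deposited values were 0.158, 0.150 and 0.608. The estimates were 0.35 ± 0.13 for R2 IVo over Sc2 and 0.39 ± 0.13 for Sc1 over Sc2, with adjusted p-values of 0.577 and 0.387 by limma. The 3 samples did not add up for SPR1. Its closure was 0.61, and 0.768% of all ORFs had a larger closure in size. Its intervals reached 0.67 and 0.71, so a 1.5-fold difference was within the error for this gene. The lowest adjusted p of the list was 0.117, for SKT5, the activator of chitin synthase III that works with Chs3, at 0.29 ± 0.062 for Sc1 over Sc2; its deposited values were −0.152, 0.110 and 0.323. CHS3 itself was at 0.028 ± 0.061 in that comparison.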

How the data were processed

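The authors' deposited table holds 1 score per ORF and sample, a log ratio of 2 strains combined over duplicate arrays with exchanged dyes, per the labels. Scanner, background correction, normalisation, averaging rule and log base were all not given in the sources used here. Whole numbers of at least 1000 in size (76 cells) were divided by 1000, 2 control spots and 55 ORFs with a missing value were left out, and each sample was centred on its median. Strain differences were fitted with limma 3.58.1 in R 4.3.3 (lmFit, eBayes) as the sides of a triangle, with 3 values and 1 residual degree of freedom per ORF, prior degrees of freedom of 5.30 and Benjamini-Hochberg adjustment over 6123 ORFs. The fit was tested on simulated data drawn from its own fitted error. The planted differences were larger than any estimate of the group, so that test does not bear on differences as small as the group's. Estimates combine the direct sample with the path through the third strain. The number of arrays limits the precision. Symbols and gene order come from RefSeq R64 and all 33 listed genes matched; no coordinates or sequences are given. All genes of the group are named; of the other pathway genes, those highest, lowest or called are named, and SKT5, which had the lowest adjusted p, was chosen after its values were seen, as were the uncalled neighbours ASF1, AYR1, KGD1, POG1 and QDR2. Called ORFs next to a member are named. The genes and lists were chosen with earlier results of these data known.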

Additional observations from a re-analysis of the deposited data

How the results depend on the processing

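No gene of the group and no other pathway gene was called by limma in any of the 3 comparisons under the 6 alternatives that give a test: no centring, centring on the mode, leaving out ORFs with restored decimal points, robust moderation, prior degrees of freedom fixed at 4, and leaving out ORFs with no RefSeq locus tag. The lowest adjusted p of a group member over all of them was 0.307. All 32 intervals stayed within 1.5-fold under each. Of 576 estimates recomputed this way, 11 changed sign, none above 0.011 in size. The number of called ORFs in the whole table was 41 for R2 IVo over Sc1, 56 for R2 IVo over Sc2 and 121 for Sc1 over Sc2. It moved by over 1.5 times in 5 cases. Without the ORFs with restored decimal points it was 15, 15 and 61 in the same order. With the fixed prior degrees of freedom it was 23 and 34 for the hybrid comparisons. Why the counts fell was not tested. From the direct sample alone 15 of 96 estimates moved by at least 1 SE, and from the indirect path alone 51 did; these values carry no test. The group's median estimate stayed between −0.042 and 0.037 in all settings and changed sign for R2 IVo over Sc1 on the indirect path and for Sc1 over Sc2 without centring and with the direct sample alone. The pathway and interval counts were added to the alternatives after the data were seen. No paired analysis was possible because each pair of strains has 1 sample.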
